A study of Mus musculus with 8 samples.

Results

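The genes described here are 46 enzymes of the urea cycle and of amino acid catabolism in mouse liver, chosen by symbol from a list of 12 pathways. All 46 were present in every RNA-seq and Ribo-seq table, among 24079 symbols shared by both assays. The study asked how betaine, a methyl donor given in drinking water, alters the liver of mice on a fat-rich diet at the level of mRNA and of translation. C57BL/6 males received a diet with 45% of its energy as fat from week 8, and livers were taken at week 25, although the labels and the methods differ on how long the diet lasted. The HF group received that diet alone, and the HB group received it with 2% (w/v) betaine, so that both groups shared the diet and no lean group was analysed here. Each group had 2 RNA-seq libraries, which measure polyadenylated mRNA, and 2 Ribo-seq libraries, which measure the mRNA fragments protected by ribosomes (RPFs, or footprints). The labels describe pooled RNA preparations whereas the methods describe single animals, so n counts libraries, and p-values measure only the spread between these libraries.

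The liver clears the nitrogen of amino acids. Aminotransferases move amino groups onto glutamate, glutamate dehydrogenase releases ammonia, and the urea cycle of periportal hepatocytes fixes it, while glutamine synthetase in pericentral hepatocytes takes up what escapes. Separate mitochondrial and cytosolic routes then burn the carbon skeletons, and many of these enzymes are known to be induced by glucagon and glucocorticoids in fasting.

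RNA-seq depth was 11661207 and 11824128 reads in HF and 22543471 and 18082685 reads in HB. Ribo-seq was far shallower, with 387980 and 1056546 reads in HF and 257086 and 141890 reads in HB, as recovered from the steps of the RPKM values. Small RNAs took 5.99% and 7.36% of the Ribo-seq reads in HF and 10.2% and 17.97% in HB, and protein-coding genes 90.7% and 89.9% in HF and 87.0% and 79.6% in HB. This difference in composition moved with the group, and its effect on members' footprints is given below by scaling to protein-coding reads. RPKM, the unit of all levels below, is the read number of a gene scaled to its transcript length and to the depth of the library. The members held a median of 24276.5 mRNA reads and 479.5 footprint reads summed over 4 libraries, and 23.5 footprint reads in the shallowest library, HB2. Hepatocyte markers were high in both groups, and Alb (albumin) averaged 23176 RPKM in HF and 28044 RPKM in HB. Of the 7, Trf (transferrin) was higher in HB, with means of 2091 and 4486 RPKM, and the other 6 did not pass, with log2 differences of -0.41 to 0.94. All 4 kidney tubule markers were listed at 0 in every library, and the 4 adipocyte markers summed to at most 0.718 RPKM. The summed mRNA of 5 erythroid markers was 675 and 523 RPKM in HF and 738 and 2249 RPKM in HB, and 3 of the 5 (Hbb-bs, Hbb-bt and Alas2) were higher in HB. Of 8 Kupffer cell markers, C1qb and Marco were higher in HB, and the 8 summed to 155 to 185 RPKM in HF and 197 to 199 RPKM in HB. Clec4f, of the same list, lay lower in HB without passing, with 72.6 and 64.4 RPKM in HF and 48.9 and 49.6 RPKM in HB. Of the 8, 6 had a positive difference in mRNA and 1 in footprints, where their median was -0.77, beside -0.43 over all tested genes. Stab2, 1 of 5 endothelial markers, and Ptprc, a leukocyte marker, were lower in HB. By the same rule, an adjusted p under 0.05, 7.92% of all tested genes were higher and 19.1% lower in mRNA. In these bulk samples, fewer cells of a type and less RNA per cell cannot be told apart, and the part of other cell types in the results was not tested.

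The mRNA of the pathway as a whole was split between directions. Haao, Gcsh, Amt, Mccc1 and Mccc2 rose in HB, and Uroc1, Sds, Prodh, Bcat2 and Bckdhb fell. Thus 5 of 46 members (10.9%) were higher and 5 (10.9%) lower at an adjusted p under 0.05 (limma, Benjamini-Hochberg over 10687 tested genes), where 7.92% of all tested genes were higher and 19.1% lower. At the stricter thresholds of the study (a log2 difference beyond 1 with an unadjusted p under 0.001), 0 members were higher and 2 lower, Bckdhb and Bcat2, where 2.3% of all tested genes were higher and 6.56% lower. The median log2 difference, HB minus HF, was 0.16 over the 46 members and -0.19 over all tested genes. After the libraries had been centred on 1 median, these medians became 0.43 and 0.08, a shift of all genes that left 9 members higher and 2 lower, beside 14.2% and 9.72% of all tested genes. The groups did not overlap in 31 members, with HB above in 20 and below in 11, where HB lay above in 24.8% and below in 43.3% of all tested genes.

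**Figure D1:**
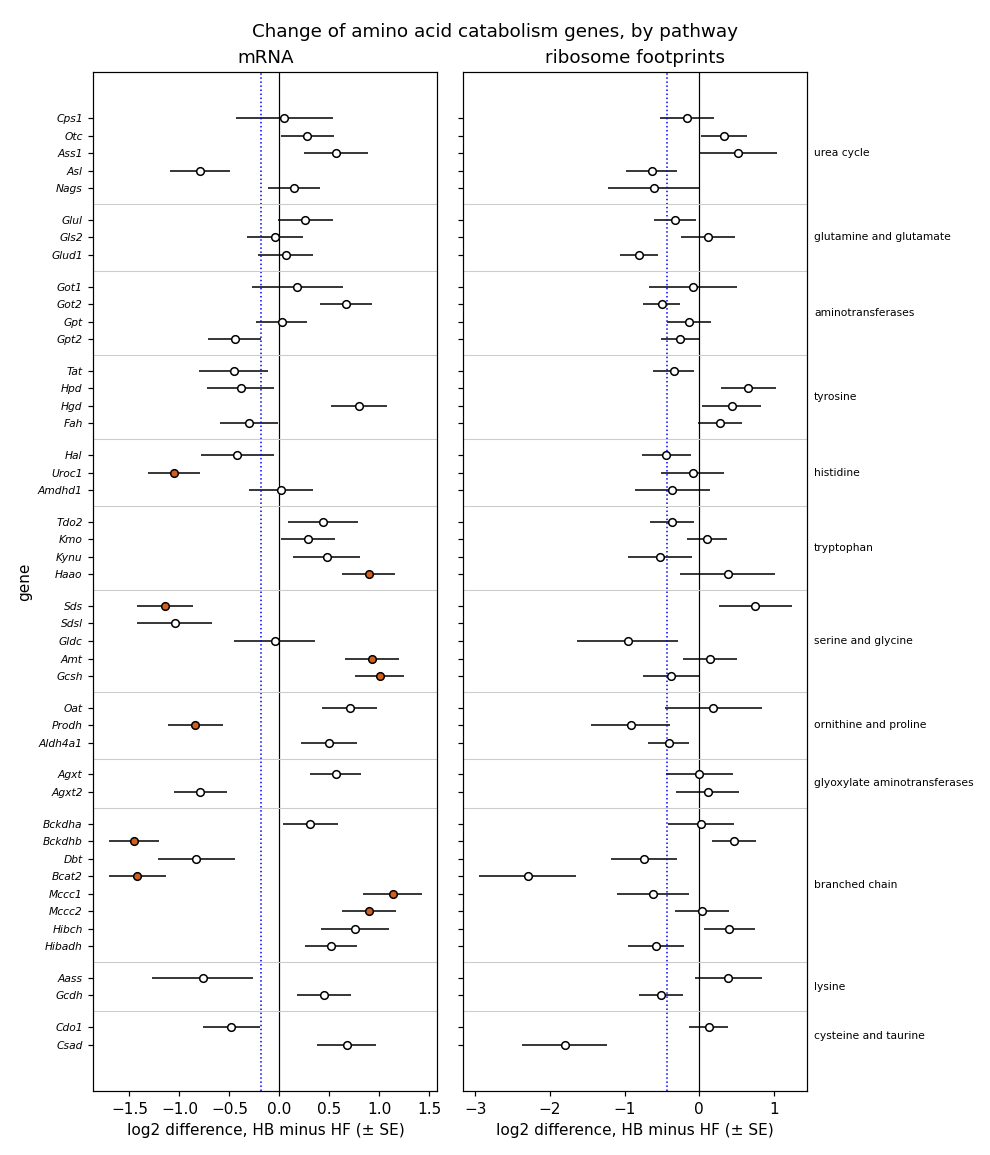
Log2 difference of HB minus HF (horizontal axis, ± SE from limma) in mRNA (left) and footprints (right) for the members reported, grouped by pathway. Filled points passed an adjusted p of 0.05, the solid line marks 0 and the dotted line the median of all tested genes. Filled points lie on both sides of 0 in mRNA and there are 0 in footprints; the Bcat2 footprint point rests on 12 reads in HF and 0 in HB and Sdsl is not plotted there.

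The 5 urea cycle enzymes described here were expressed in both groups, with Nags far below the others, and none passed the mRNA test. Cps1, which makes carbamoyl phosphate and commits ammonia to the cycle, had 369 and 156 RPKM in HF and 393 and 156 RPKM in HB. The libraries of each group thus differed more than 2-fold among themselves and the groups overlapped. Otc, which joins carbamoyl phosphate to ornithine, had 159.9 and 153 RPKM in HF and 216 and 168 RPKM in HB. Ass1, which makes argininosuccinate, had 1488 and 1133 RPKM in HF and 2209.97 and 1673 RPKM in HB. Both HB libraries lay above both HF libraries for Otc and Ass1, as in 24.8% of all tested genes, with log2 differences of 0.28 ± 0.27 and 0.57 ± 0.32 (SE, limma) that did not pass the test.

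Asl, which splits argininosuccinate, lay the other way. It had 879 and 642 RPKM in HF and 382 and 490.4 RPKM in HB, a log2 difference of -0.80 ± 0.30 with an adjusted p of 0.0748 (limma). Asl did pass on a common sum and with the replicate number as a block, but not after centring on 1 median. Nags, which makes the activator of Cps1, had 35.8 and 28.3 RPKM in HF and 31.7 and 39.2 RPKM in HB, so its groups overlapped. Glul, glutamine synthetase, had 322 and 243 RPKM in HF and 338 and 332 RPKM in HB, with an adjusted p of 0.506 (limma).

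In footprints, 4 of these 5 enzymes overlapped between the groups, where HB lay above HF in 9.07% and below in 33.2% of all tested genes. Cps1 had 424 and 712 RPKM in HF and 551 and 439.7 RPKM in HB. Ass1 had 417 and 875 RPKM in HF and 1192 and 631 RPKM in HB. The HB values of both genes lay within or across the HF range. Asl, with 141 and 154 RPKM in HF and 122 and 73.4 RPKM in HB, had HB footprints below both HF libraries (log2 difference -0.64 ± 0.34, adjusted p = 0.596, limma). Glul had 411 and 418 RPKM in HF and 382 and 286 RPKM in HB, with HB below HF (adjusted p = 0.676, limma). Footprint log2 differences were 0.33 for Otc, 0.52 for Ass1, -0.16 for Cps1 and -0.60 for Nags, none past the test.

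**Figure D2:**
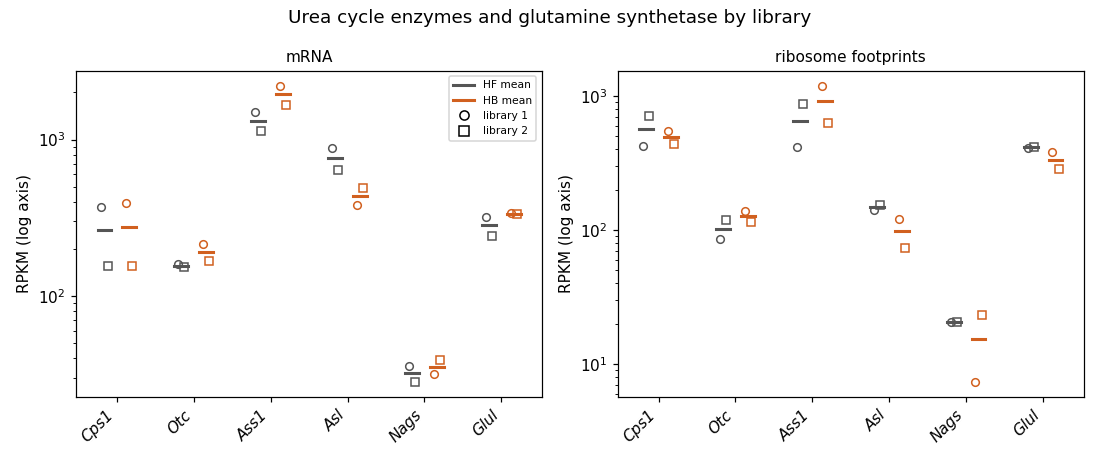
RPKM (log axis) of 5 urea cycle enzymes and Glul in mRNA (left) and footprints (right), with 1 point per library and a bar at the mean of the 2 libraries of a group. Asl lies lower in HB than in HF in both panels, and the Cps1 mRNA libraries of each group lie more than 2-fold apart.

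Zonation markers that are not members were called in both directions in mRNA, where 7.92% of all tested genes were higher and 19.1% lower. Of 7 tested periportal markers, Aldh1b1 was higher and Etnppl and Ftcd lower, and their summed mRNA was 3232 and 2652 RPKM in HF and 2428 and 3021 RPKM in HB. Of 8 tested pericentral markers, Tbx3 and Axin2 were lower, whereas the sum of the list was 2853 and 3148 RPKM in HF and 5027 and 5208 RPKM in HB, most of it Cyp2e1 (adjusted p = 0.0518, limma). In footprints no marker of either list passed. The median log2 footprint difference was -0.55 for periportal and -0.31 for pericentral markers, beside -0.43 over all tested genes. The part of zonation in the urea cycle values was not tested.

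Branched chain amino acid catabolism held 4 of the 10 members that passed. Of its 8 members 2 were higher and 2 lower, beside 7.92% and 19.1% of all tested genes. Bckdhb, the E1 beta subunit of the complex that commits branched chain keto acids to oxidation (chr9:83925145-84124240, + strand, mm10), had 188 and 187 RPKM in HF and 67.6 and 67.6 RPKM in HB. It fell 2.77-fold (log2 difference -1.46 ± 0.25, adjusted p = 0.00593, limma), and its libraries agreed closely within each group. Bcat2, the mitochondrial aminotransferase that starts the pathway (chr7:45570153-45589711, + strand), had 36.5 and 33.2 RPKM in HF and 9.75 and 15.7 RPKM in HB. It fell 2.74-fold (-1.42 ± 0.28, adjusted p = 0.00888, limma). The kit does not mark strand, and 15.9% of the exon bases of Bcat2 are shared with the antisense gene 0610005C13Rik, which was listed at 130.0 to 208 RPKM, so reads of the pair cannot be told apart.

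The subunits of methylcrotonyl-CoA carboxylase, the biotin enzyme of leucine breakdown, lay in the other direction. Mccc1 had 8.71 and 7.35 RPKM in HF and 24.1 and 14.5 RPKM in HB, and rose 2.40-fold (1.13 ± 0.29, adjusted p = 0.0209, limma). Mccc2 had 14.9 and 13.8 RPKM in HF and 33.7 and 22.4 RPKM in HB, and rose 1.96-fold (0.89 ± 0.27, adjusted p = 0.0378, limma). HB lay above HF in both subunits. The other 4 members of this pathway did not pass: Bckdha, Hibch and Hibadh had log2 differences of 0.31 to 0.76, and Dbt had -0.83.

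Serine and glycine breakdown also held changes in both directions, with 2 of its 5 members higher and 1 lower. Sds, serine dehydratase, which turns serine into pyruvate, had 918 and 735 RPKM in HF and 353 and 388 RPKM in HB, and fell 2.23-fold (-1.15 ± 0.28, adjusted p = 0.0171, limma). Its exons share 21.3% of their bases with Plbd2, on the other strand, which was listed at 15.8 to 24.2 RPKM. Gcsh, the lipoyl carrier protein of the glycine cleavage system, had 28.6 and 31.1 RPKM in HF and 63.5 and 58.0 RPKM in HB, and rose 2.04-fold (1.00 ± 0.24, adjusted p = 0.0172, limma). Amt, the aminomethyltransferase of the same system, had 7.77 and 6.45 RPKM in HF and 17.0 and 12.1 RPKM in HB, and rose 2.05-fold (0.93 ± 0.27, adjusted p = 0.0315, limma). Gldc, the decarboxylase of the system, had a log2 difference of -0.047 and did not pass.

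The 3 remaining changes were in histidine, tryptophan and proline breakdown. Uroc1, urocanate hydratase, had 392 and 339 RPKM in HF and 172 and 178 RPKM in HB, and fell 2.09-fold (-1.05 ± 0.26, adjusted p = 0.0183, limma). Haao, which makes the precursor of quinolinate on the route from tryptophan to NAD, had 357 and 348 RPKM in HF and 619 and 693 RPKM in HB, and rose 1.86-fold (0.89 ± 0.27, adjusted p = 0.0362, limma). Prodh, proline dehydrogenase, had 276 and 196 RPKM in HF and 133 and 126 RPKM in HB, and fell 1.82-fold (-0.84 ± 0.28, adjusted p = 0.0482, limma). For all 10 members that passed, the separation of the mRNA groups follows largely from their choice by the mRNA test and is a description.

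These calls rest on few libraries. Bckdhb and Bcat2 passed without any 1 of the 4 RNA-seq libraries, whereas without HF1 only Mccc1 passed beside them, and without HF2 Sds, Aass and Sdsl did, so that 3 and 5 members were called. Without HB1, Amt, Mccc1 and Mccc2 did not pass, and on a common sum Amt and Mccc2 did not. Each fit without a library leaves 1 library in a group, which is assumed to vary like the other group. With no filter on low values, 0 members and 0 of all genes passed, and after centring on 1 median 7 of the 10 remained, without Prodh, Sds and Uroc1. The median GC content of the annotated transcripts was 50.1% in the 5 higher members, 53.9% in the 5 lower ones and 50.6% over all 46, and its part in the calls was not tested.

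**Figure D3:**
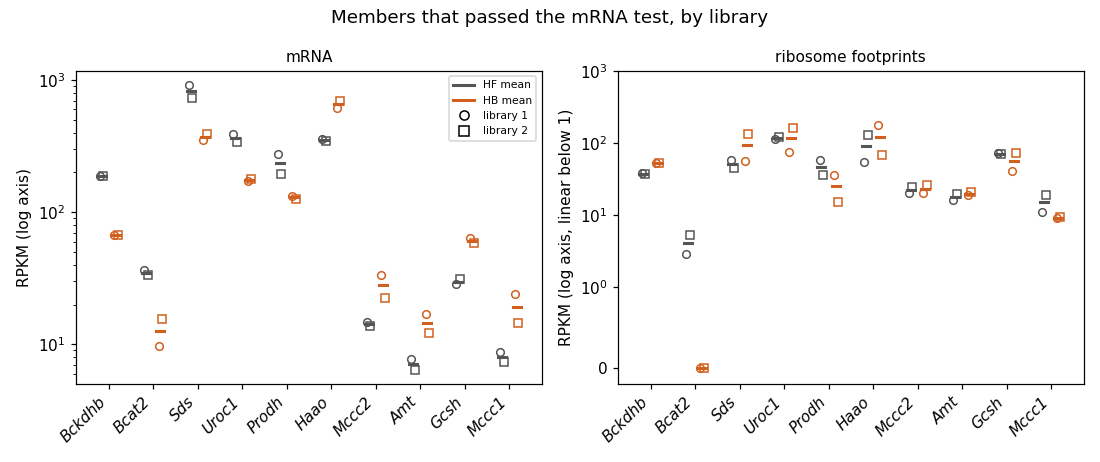
RPKM of the 10 members that passed the mRNA test, in mRNA (left, log axis) and footprints (right, log axis that is linear below 1), with 1 point per library and a bar at the group mean, ordered by mRNA difference. The mRNA groups are separate in all 10, which were chosen by the mRNA test, the footprint groups overlap in 7, and Bcat2 is listed at 0 in both HB libraries.

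The remaining members did not pass the test. The 4 aminotransferases had log2 mRNA differences of -0.45 to 0.67 and the 4 tyrosine enzymes -0.46 to 0.80. Hpd, the dioxygenase of tyrosine breakdown and the most abundant member mRNA, had 3032 and 1921 RPKM in HF and 1691 and 2010.3 RPKM in HB, with overlapping groups. Tdo2, which opens the tryptophan ring, had 481 and 293 RPKM in HF and 653 and 393 RPKM in HB and also overlapped. Cdo1, the dioxygenase that oxidizes cysteine, had 1056 and 851 RPKM in HF and 682 and 676 RPKM in HB, with HB below HF (-0.48 ± 0.28, adjusted p = 0.231, limma). Got2, Hgd, Oat and Csad were higher, and Asl, Sdsl and Agxt2 lower, at an unadjusted p under 0.05 alone. With the called members, 9 of 46 (19.6%) were higher and 8 (17.4%) lower at that level, beside 12.9% and 27.6% of all tested genes.

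In footprints, no member passed an adjusted p of 0.05 in limma, nor did any of the 11190 tested genes (0%), and at an unadjusted p under 0.05 there were 0 higher and 3 lower members, where 192 of all genes were higher and 930 lower. A voom fit on the recovered reads called 0 members and, of all genes, 51 higher and 34 lower. At the study's footprint thresholds (a log2 difference beyond 1, unadjusted p under 0.05), 0 members were higher and 2 lower, Csad and Bcat2, where 1.58% of all tested genes were higher and 7.86% lower. The third at an unadjusted p under 0.05 was Glud1, glutamate dehydrogenase, named after its values were seen, with 496 and 557 RPKM in HF and 310.4 and 290.1 RPKM in HB (-0.81 ± 0.25, adjusted p = 0.493, limma). The median log2 footprint difference was -0.14 over 45 tested members and -0.43 over all tested genes, and -0.022 and -0.33 after scaling to protein-coding reads.

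Csad, which makes hypotaurine (chr15:102176999-102204724, - strand), was lower in HB footprints at the study's thresholds. It had 33.7 and 21.5 footprint RPKM in HF and 10.9 and 4.39 RPKM in HB, from 42, 73, 9 and 2 reads. Its log2 footprint difference was -1.80 ± 0.57 (adjusted p = 0.493, limma). The pooled HB to HF ratio was 0.346 with an exact 95% interval of 0.168 to 0.643, which covers counting error only. Its mRNA had 13.1 and 18.2 RPKM in HF and 20.3 and 31.5 RPKM in HB, and did not pass (0.67 ± 0.29, adjusted p = 0.116, limma). Bcat2 had 2 and 10 footprint reads in HF and 0 in both HB libraries, where 3 reads would be 6.49 and 11.8 RPKM, and the pooled ratio had an exact 95% interval of 0 to 1.30, which includes 1. Its place past the study's thresholds rests on those 12 reads. Sdsl had 1 and 2 reads in HF and 0 in HB and was under the filter.

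Among the most translated members, footprints were high in both groups. Hpd had 352 and 525 RPKM in HF and 847 and 544 RPKM in HB, with HB above HF (0.66 ± 0.37, adjusted p = 0.604, limma). Tdo2 had 680.3 and 756 RPKM in HF and 474 and 652 RPKM in HB, with HB below HF (-0.37 ± 0.30, adjusted p = 0.663, limma). Cdo1 had 633 and 688 RPKM in HF and 763 and 683 RPKM in HB, and its groups overlapped.

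The members called in mRNA did not pass an adjusted p of 0.05 in footprints. Of them, only Bcat2, described above, separated the footprint groups in the direction of its mRNA (-2.30 ± 0.65), on 12 reads in HF and 0 in HB. Bckdhb, lower in mRNA, had 38.2 and 36.9 footprint RPKM in HF and 52.4 and 52.2 RPKM in HB (0.47 ± 0.29). Sds, lower in mRNA, had 57.6 and 45.5 RPKM in HF and 56.8 and 133 RPKM in HB (0.75 ± 0.49). Mccc1, higher in mRNA, had 11.2 and 19.4 RPKM in HF and 9.13 and 9.45 RPKM in HB (-0.62 ± 0.48). Bckdhb and Mccc1 separated the groups in the direction opposite to their mRNA, but neither passed the footprint test, and on a common sum the Bckdhb difference was -0.39 and that of Sds -0.11. Footprint differences were -0.37 for Gcsh, 0.14 for Amt, 0.039 for Mccc2, 0.38 for Haao, -0.088 for Uroc1 and -0.91 for Prodh, with groups that overlapped. Over 45 members the mRNA and footprint differences had r = 0.087 and the same sign in 20 (44.4%), and over 9455 genes tested in both r was 0.084 and the sign was the same in 56.4%, a description across genes that are not independent replicates.

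**Figure D4:**
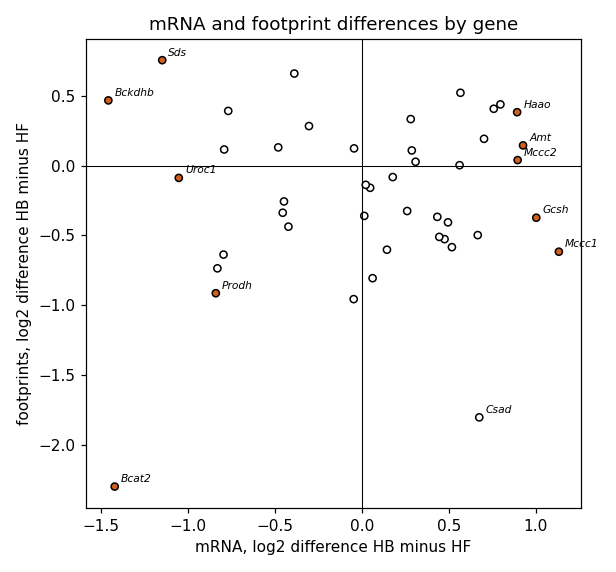
Log2 difference of HB minus HF in mRNA (horizontal axis) against footprints (vertical axis), with 1 point for each member reported and filled points for those that passed the mRNA test. Bckdhb and Sds lie at the upper left, and Mccc1, Gcsh and Csad at the lower right.

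Translation efficiency (TE), the footprint RPKM divided by the mRNA RPKM of the library with the same number, gave 0 members and 0 of 9455 genes (0%) past an adjusted p of 0.05 in limma. At an unadjusted p under 0.05, 1 member was higher and 3 lower, where 268 of all genes were higher and 886 lower. At the study's TE thresholds (a log2 difference beyond 2, unadjusted p under 0.05), 0 members were higher and 1 lower, Csad, where 1.49% of all tested genes were higher and 4.6% lower. The TE of Csad was 2.57 and 1.18 in HF and 0.538 and 0.139 in HB (-2.48 ± 0.83, adjusted p = 0.364, limma). The other 3, named after their values were seen, were Bckdhb, Mccc1 and Gcsh. The TE of Bckdhb was 0.203 and 0.198 in HF and 0.774 and 0.771 in HB (1.92 ± 0.69, adjusted p = 0.378, limma). These values rest on the few footprint reads given above. That of Mccc1 was 1.29 and 2.64 in HF and 0.379 and 0.652 in HB, and that of Gcsh was 2.53 and 2.25 in HF and 0.639 and 1.27 in HB. These 4 were chosen by their p-values, so the separation of their groups is a description, and HB lay above HF in 14.0% and below in 31.7% of all tested genes. The median log2 TE difference was -0.35 over the 45 tested members and over all tested genes. For 11 members, among them Bckdhb, Gcsh and Csad, the transcript length behind the RPKM differed between the assays, which scales the TE level, and also enters the fitted change through the added 1. Which RNA-seq library shares an animal with which Ribo-seq library is not given in the sources used here.

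Other genes of these pathways also changed in both directions. Of 49 tested, 10 were higher in HB mRNA (among them Qdpr, Qprt, Pcca, Pccb, Mmab, Aldh7a1, Abat, Suox and Shmt1) and 6 lower (Ftcd, Afmid, Mmaa, Prodh2, Etnppl and Kyat1), beside 7.92% and 19.1% of all tested genes, and their median log2 difference was 0.30 beside -0.19. After centring on 1 median 15 were higher and 2 lower, beside 14.2% and 9.72% of all genes. Without HF1 there were 8 higher and 3 lower, without HB2 17 and 8, and with no low-value filter 0 and 0, and without HB1 the median was 0.032. Qprt, which carries quinolinate into NAD synthesis, had 20.4 and 28.4 RPKM in HF and 147 and 86.3 RPKM in HB (2.18 ± 0.31, adjusted p = 0.00525, limma). Suox, sulfite oxidase, had 10.9 and 8.71 RPKM in HF and 66.6 and 32.9 RPKM in HB (2.15 ± 0.34). Pcca and Pccb encode the subunits of propionyl-CoA carboxylase, a biotin enzyme like that of Mccc1 and Mccc2. None of the 49 tested in footprints passed.

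A list of 20 genes held receptors, transcription factors and coactivators that act on these pathways, with hormone-responsive genes such as Fkbp5, Tsc22d3, Pck1 and G6pc. Of these 20, 9 were lower in HB mRNA and 0 higher, beside 19.1% and 7.92% of all tested genes, and their median log2 difference was -0.78 beside -0.19. After centring on 1 median 5 were lower, beside 9.72% of all genes, 5 were lower without HF1 or without HF2, and 0 with no low-value filter. The 9 were the glucagon receptor Gcgr, Creb3l3, Foxo1, Tsc22d3, Fkbp5, Per1, Crtc2, Atf4 and Nr1h4. Nr1h4, the bile acid receptor FXR, had 224 and 176 RPKM in HF and 47.2 and 63.6 RPKM in HB (-1.84 ± 0.28, adjusted p = 0.00526, limma). Crtc2, a coactivator of CREB, had 47.5 and 32.9 RPKM in HF and 10.8 and 14.9 RPKM in HB (-1.57 ± 0.28). Per1, a clock gene that glucocorticoids induce, had 59.5 and 59.9 RPKM in HF and 17.1 and 26.9 RPKM in HB (-1.43 ± 0.28). Of 15 tested amino acid transporters 1 was lower, Slc38a2, which imports neutral amino acids, with 86.8 and 66.3 RPKM in HF and 35.0 and 38.6 RPKM in HB, and 0 were called after centring. No gene of either list passed in footprints.

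Promoters are shown for Bckdhb, the member with the largest mRNA fall, and for Haao, with the smallest rise of the members that passed. The third is that of Csad, a member past the study's thresholds in footprints and TE. Of the 46 members, 36 had a promoter in the RefSeq table (GRCm38.p6, 250 bases before to 50 bases after the start), and 40 promoters were searched on both strands. Capitals mark AGAACA, the core of a glucocorticoid receptor site, in Bckdhb and, as its reverse complement, in Haao, and TGACG, the core of a cyclic AMP response element, in Csad. The sequences run 5′ to 3′ as the table gives them, from chr9:83924887-83925186 (+ strand), chr17:83846741-83847040 (- strand) and chr15:102205003-102205302 (- strand).
Bckdhb: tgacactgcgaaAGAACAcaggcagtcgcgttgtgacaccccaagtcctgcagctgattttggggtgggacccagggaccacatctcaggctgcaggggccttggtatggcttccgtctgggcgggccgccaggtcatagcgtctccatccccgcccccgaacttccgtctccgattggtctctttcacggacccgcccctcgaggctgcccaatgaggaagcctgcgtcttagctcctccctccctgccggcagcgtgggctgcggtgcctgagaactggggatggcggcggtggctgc
Haao: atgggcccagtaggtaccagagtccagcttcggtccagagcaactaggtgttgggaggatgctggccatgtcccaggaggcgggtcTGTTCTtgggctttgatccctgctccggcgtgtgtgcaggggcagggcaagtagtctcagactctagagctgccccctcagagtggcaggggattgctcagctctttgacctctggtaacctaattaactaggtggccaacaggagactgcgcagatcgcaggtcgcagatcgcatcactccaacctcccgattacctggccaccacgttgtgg
Csad: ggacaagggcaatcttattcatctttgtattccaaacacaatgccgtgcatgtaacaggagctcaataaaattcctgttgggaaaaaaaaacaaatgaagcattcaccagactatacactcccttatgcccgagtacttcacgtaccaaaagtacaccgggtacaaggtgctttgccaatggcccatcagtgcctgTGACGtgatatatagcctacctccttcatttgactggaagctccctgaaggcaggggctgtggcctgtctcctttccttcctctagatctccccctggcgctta
AGAACA was in 10% of the member promoters and in 19.0% of all 32851 promoters of the same length, and TGACG was in 10% and 20.8%. The TATA box TATAAA was in 15% of member promoters, with 2 overlapping windows of Agxt2 among them, and 13.6% of all. The HNF4 site CAAAGTCCA was in 2 of the 40, which are overlapping windows of Agxt2 that hold the same site, and in 0.475% of all, and neither TTGCGCAA nor TGACGTCA, which contains TGACG, was in any member promoter. Bckdhb and Csad each have another promoter in the table, at another start, that held none of these motifs. The promoters of Mccc1, Mccc2, Gcsh and Amt, which rose more than Haao in mRNA, held none either. Nor did those of Uroc1, Prodh and Bcat2, which fell. A match describes letters and not binding.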

How the data were processed

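RNA-seq and Ribo-seq were each made from 2 HF and 2 HB liver libraries. FANSe2 was used by the authors for mapping to mm10, and the deposited values are RPKM, each library scaled by itself. Their edgeR results were not used here. Entries that share a symbol were left out. Library totals and whole reads were recovered from steps of 1 read in low RPKM values: 97.7% of RNA-seq and 95.4% of Ribo-seq values above 0 came out whole, within 0.01 and 0.002 of a read at low values, and entered only depths, counting intervals (exact binomial) and a voom alternative. Intervals cover counting error only.

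Per assay, limma 3.58.1 (R 4.3.3; trended variance, two-sided) compared HB with HF on log2(RPKM + 1) where the mean RPKM reached 1, with no other factor, and p-values were adjusted by Benjamini-Hochberg over all tested genes. Log2 differences are on that scale, which understates changes of low genes. Fold changes are ratios of mean RPKM. The TE fit used the log2 ratio of RPF to mRNA RPKM, each raised by 1. With 2 against 2 libraries, an exact permutation test cannot go below p = 0.333. The fit was tested on simulated data.

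The members and lists were chosen with earlier results of these data known. Values per library were given for the urea cycle enzymes and Glul, members past the mRNA test or the study's RPF or TE thresholds, the 5 with the highest footprint level, and at most 3 genes of each other list; some genes that this rule names are not reported here. Alternatives were another pseudocount, filter, scaling, variance model and block, the omission of each library, and voom. Coordinates and overlaps came from GENCODE M21 (GRCm38).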

Additional observations from a re-analysis of the deposited data

How the results depend on the processing

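With 2 libraries per group, and as few as 141890 Ribo-seq reads, the calls depended on the setting, and the causes were not tested beyond what each construction shows. The adjusted mRNA counts (5 higher, 5 lower) became 0 and 0 with no low-value filter, 9 and 2 on a common median, and 3 and 8 on a common sum. The mRNA counts at the study's thresholds (0 higher, 2 lower) became 3 and 0 on the common median, and 1 was lower with no filter. With a pseudocount of 0.1, a minimum of 5 RPKM or voom, the same 10 members were called. With the replicate number as a block, 6 members were higher and 9 lower at an adjusted p, and 1 was higher and 3 lower at the study's thresholds. The deviations of same-numbered HF and HB libraries had r = -0.104 across genes in mRNA and -0.0138 in footprints. Between RNA-seq and Ribo-seq libraries of the same number, r was -0.0024 in HF and -0.077 in HB. These values show no sign of pairing by number, but with 2 libraries per group they cannot exclude it. The crossed pairing, added after seeing the data, gave 8 lower in mRNA at an adjusted p, and at the study's thresholds 1 higher in mRNA and 1 lower in footprints.

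Without 1 library in turn, the adjusted mRNA counts ranged from 0 to 11 higher and from 2 to 8 lower, and those at the study's thresholds from 0 to 3 in either direction. In footprints, 0 to 1 were lower at an adjusted p (Bcat2, without HF1 or HF2), 0 to 1 higher and 1 to 6 lower at the study's thresholds. In TE, 0 to 2 were lower at an adjusted p (Csad without HB1, Gcsh and Mccc1 without HB2), and 0 to 1 higher and 0 to 1 lower at the study's thresholds. Log2 differences that changed sign ranged from -0.62 to 0.71 (Cps1) and -0.020 to 0.31 (Nags) in mRNA. In footprints they ranged from -0.53 to 0.21 (Cps1), -0.012 to 1.05 (Ass1), -1.37 to 0.17 (Nags), -0.62 to 0.45 (Uroc1), -0.28 to 1.05 (Haao), -0.79 to 0.047 (Gcsh) and -0.15 to 0.23 (Mccc2).

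In footprints, 1 member was lower at the study's thresholds with a minimum of 5 RPKM or with voom. On a common sum, which moved the median of all genes to -1.19 and that of the members to -1.02, 17 were lower, and in TE 3 were. There the footprint differences became -0.53 for Otc, -0.35 for Ass1, -0.21 for Hpd, -0.48 for Haao, -0.11 for Sds, -0.69 for Amt, -0.39 for Bckdhb, -0.80 for Mccc2 and -0.74 for Cdo1. On the common median they became 0.17 for Cps1 and 0.24 for Uroc1, and 1 member was higher in TE. Scaled to protein-coding reads, an alternative also added after seeing the data, the value of Uroc1 was 0.028 and 1 member was higher in TE. The interaction fit and crossed numbers left every TE count as it was.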
